A study of Homo sapiens with 6 samples.

Results

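The HOX and IRX homeobox genes were examined in BxPC-3 tumors with and without deferasirox (DFX), an oral iron chelator. BxPC-3 is an established human pancreatic adenocarcinoma cell line. Members were all non-control probes whose array gene name was HOXA, HOXB, HOXC or HOXD followed by a number, or IRX1 to IRX6. The rule used names alone. It found 45 genes with 52 probes among 36337 gene names with 50599 probes. HOXA had 11 genes and 14 probes, HOXB 10 genes and 11 probes, HOXC 9 genes and 9 probes, HOXD 9 genes and 11 probes, and IRX 6 genes and 7 probes.

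BxPC-3 cells in Matrigel had been placed under the skin of the back of female BALB/c (nu/nu) mice, aged 8 to 10 weeks, and treatment began at a tumor volume of 150 mm3. The DFX group (n = 3 tumors) received 200 mg/kg DFX in saline by gavage on alternate days, with 3 doses a week for 21 days, and the control group (n = 3 tumors) received the vehicle. One-color Agilent 60-mer arrays for human transcripts were hybridized with the RNA of each tumor. The line is a single human line, and nude mice lack mature T cells but keep other host cells, so mouse RNA could be in every sample. In whole tumors, fewer cells of a type and less RNA per cell cannot be told apart.

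HOX genes encode transcription factors that specify position along the body axis, and lie in 4 clusters in which gene order follows the order of expression from head to tail. Genes with the same number in different clusters are paralogues and fall into 13 groups. IRX genes encode homeodomain factors of the TALE class, which also pattern the embryo. The pattern of HOX genes in use is retained by many adult tissues and cell lines, and HOX loci are classical targets of Polycomb repression and of retinoic acid.

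The probes are 60-base oligonucleotides. Coordinates follow the array annotation, human build hg19. The 4 probes shown come from genes described below, and 3 of them overlap the helix of the homeodomain that touches DNA. This helix is the most conserved stretch of the family and the one where paralogues are hardest to separate. In the HOXB2 and HOXC10 probes the capitals mark the codons of the Trp-Phe-Gln-Asn stretch, in the HOXD9 probe those of Gln-Asn-Arg, and in the IRX5 probe the last 3 bases. The sequences are written 5′ to 3′ in the sense of the gene.
HOXB2, chr17:46620897-46620956, minus strand: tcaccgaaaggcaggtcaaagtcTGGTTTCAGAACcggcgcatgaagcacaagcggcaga
HOXC10, chr12:54383100-54383159, plus strand: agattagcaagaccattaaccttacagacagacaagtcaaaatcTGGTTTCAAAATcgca
HOXD9, chr2:176988842-176988901, plus strand: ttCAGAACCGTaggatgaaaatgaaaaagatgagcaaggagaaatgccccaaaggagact
IRX5, chr16:54967726-54967785, plus strand: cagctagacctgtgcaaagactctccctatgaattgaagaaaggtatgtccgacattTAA
Any spelling of the Trp-Phe-Gln-Asn codons, on either strand, was in 2 of the 52 HOX and IRX probes (3.85%) and in 19 of 50571 distinct probe sequences on the array (0.0376%).

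The first question was which genes of the clusters the tumors expressed. A spot was well above background where the scanner software called it so against the local background. Of the 52 probes, 27 (24 genes) were well above background on all 6 arrays, 10 on some arrays and 15 on none, and 13 genes had no probe well above background on any array. This flag is stricter than a signal significantly above background, which some of those 13 genes showed, among them IRX6 on 4 arrays and IRX4 on 1. HOXA, HOXB and HOXC were in use, and HOXD was nearly dark. On all 6 arrays, 8 of 11 HOXA genes were well above background (HOXA2, HOXA3, HOXA5, HOXA6, HOXA7, HOXA9, HOXA10 and HOXA13), as were 8 of 10 HOXB genes (HOXB2 to HOXB7, HOXB9 and HOXB13). The same held for 6 of 9 HOXC genes (HOXC4, HOXC6, HOXC8, HOXC9, HOXC10 and HOXC13), 0 of 9 HOXD genes and 2 of 6 IRX genes (IRX3 and IRX5).

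Detection differed little over wide stretches of the clusters. Of the probes of paralogue groups 1 to 3, 5 of 10 were well above background on all arrays. For groups 4 to 8 it was 10 of 16, and for groups 9 to 13 it was 10 of 19. No gene of groups 1, 11 or 12 was well above background on all arrays, whereas every gene of groups 2, 6 and 7 on the array was. These groups, picked by their values, hold 2 or 3 genes each. Groups 1, 11 and 12 each include a HOXD gene, and groups 2, 6 and 7 do not. In group 13, HOXA13, HOXB13 and HOXC13 were well above background throughout and HOXD13 on no array. These genes are the last of their clusters and pattern the hindmost body and the digits. The 2 IRX clusters also differed. IRX3 and IRX5, on chromosome 16, were well above background throughout, but their neighbor IRX6 on no array. On chromosome 5, IRX1 and IRX2 were well above background on some arrays and IRX4 on none.

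**Figure D1:**
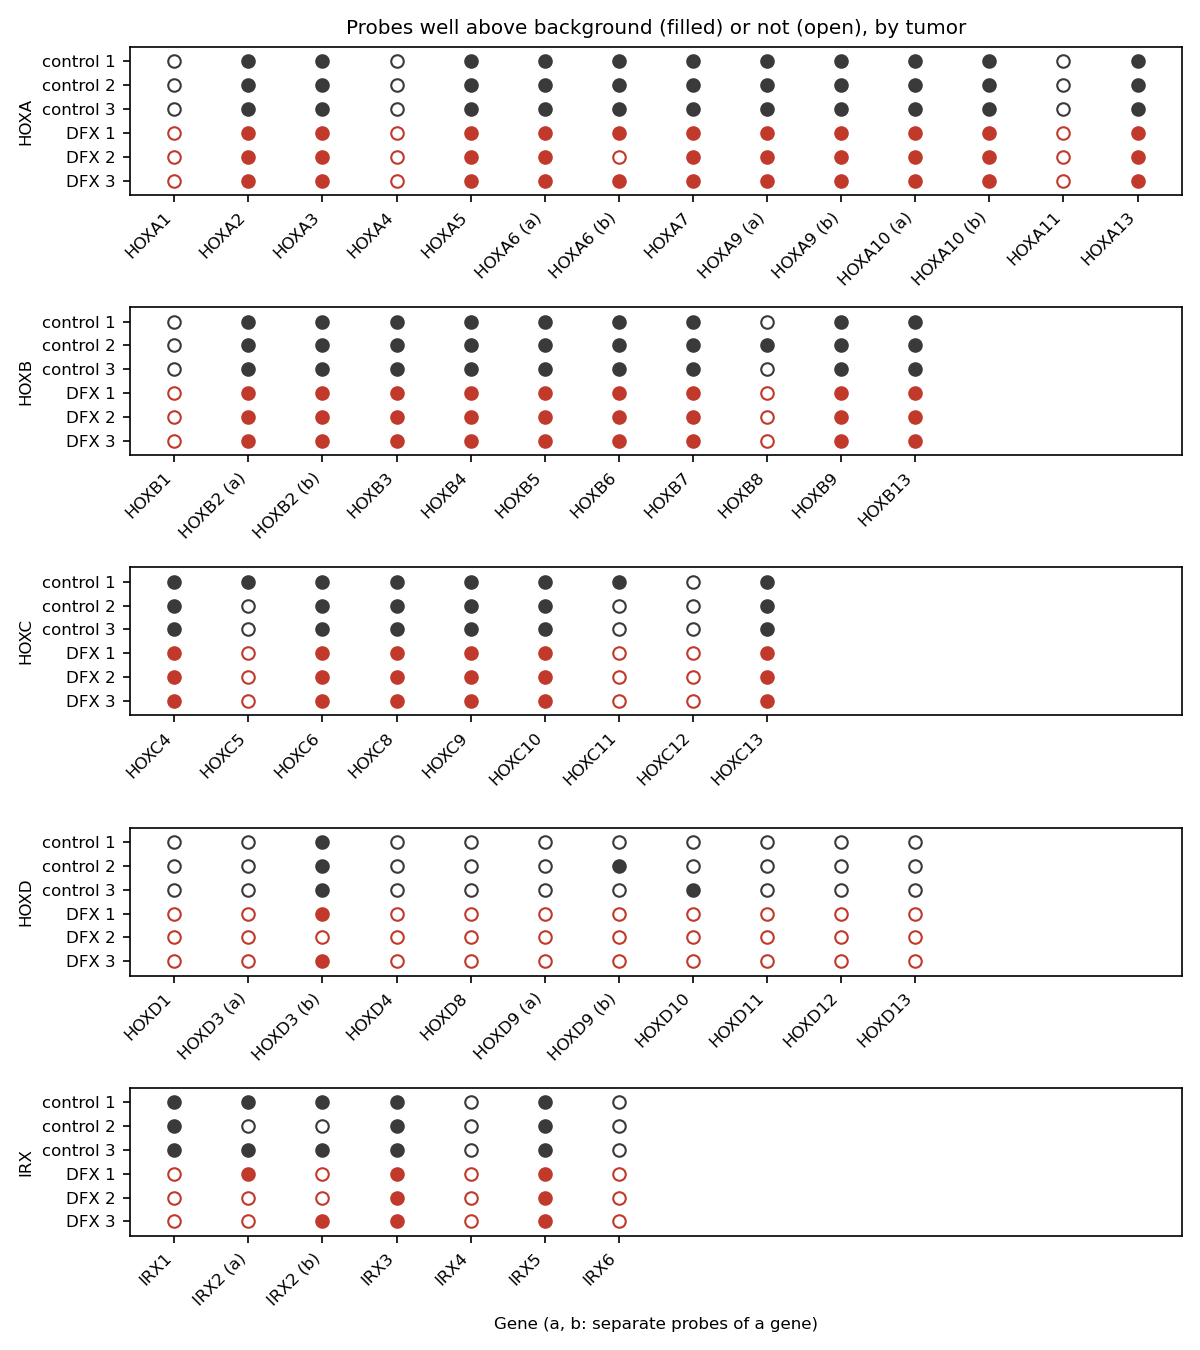
Each circle is one probe (x axis, by cluster and gene number; a and b are separate probes of a gene) in one tumor (y axis, 3 control tumors in grey and 3 DFX tumors in red), filled where the spot was well above background. HOXA, HOXB and HOXC are mostly filled in every tumor, HOXD is mostly open, and IRX1 is filled in the 3 control tumors and open in the 3 DFX tumors.

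The number of HOX and IRX probes well above background was 34, 32 and 33 in control tumors and 30, 27 and 30 under DFX. The groups did not overlap. The share over all probes of the array was 56.5%, 54.2% and 56.0% in control tumors and 53.9%, 50.3% and 54.4% under DFX, so DFX replicate 2 was lowest on both counts. The part of this array-wide difference in the HOX and IRX counts was not tested. By cluster, the counts were 11, 11 and 11 against 11, 10 and 11 for HOXA, 9, 10 and 9 against 9, 9 and 9 for HOXB, and 8, 6 and 6 against 6, 6 and 6 for HOXC. They were 1, 2 and 2 against 1, 0 and 1 for HOXD, and 5, 3 and 5 against 3, 2 and 3 for IRX. The fewer probes in DFX tumors were thus mostly dim HOXC, HOXD and IRX probes.

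The second question was whether DFX moved these genes. Of the 52 probes, 36 (32 genes) passed the detection filter and were tested with limma, and 16 probes did not pass. Differences are given on the log2 scale of quantile-normalized intensity as DFX minus control. At an unadjusted p under 0.05, 3 of 36 probes were called (8.33%), against 8.41% of all 31807 tested probes. HOXB8 and IRX1 were called lower (5.56%, against 4.95% of all probes) and HOXB13 was called higher (2.78%, against 3.46%). The groups did not overlap for 4 of 36 probes (11.1%), against 15.5% of all probes. No HOX or IRX probe passed after adjustment over all tested probes (lowest adjusted p = 0.514), nor did any other probe of the array (lowest adjusted p = 0.0675, with 2675 probes at an unadjusted p under 0.05). The HOX and IRX probes were thus called about as often as the array in general. They had 19 differences below and 17 above 0 with a median of -0.018, beside a median of -0.025 and 54.4% below 0 over all tested probes.

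**Figure D2:**
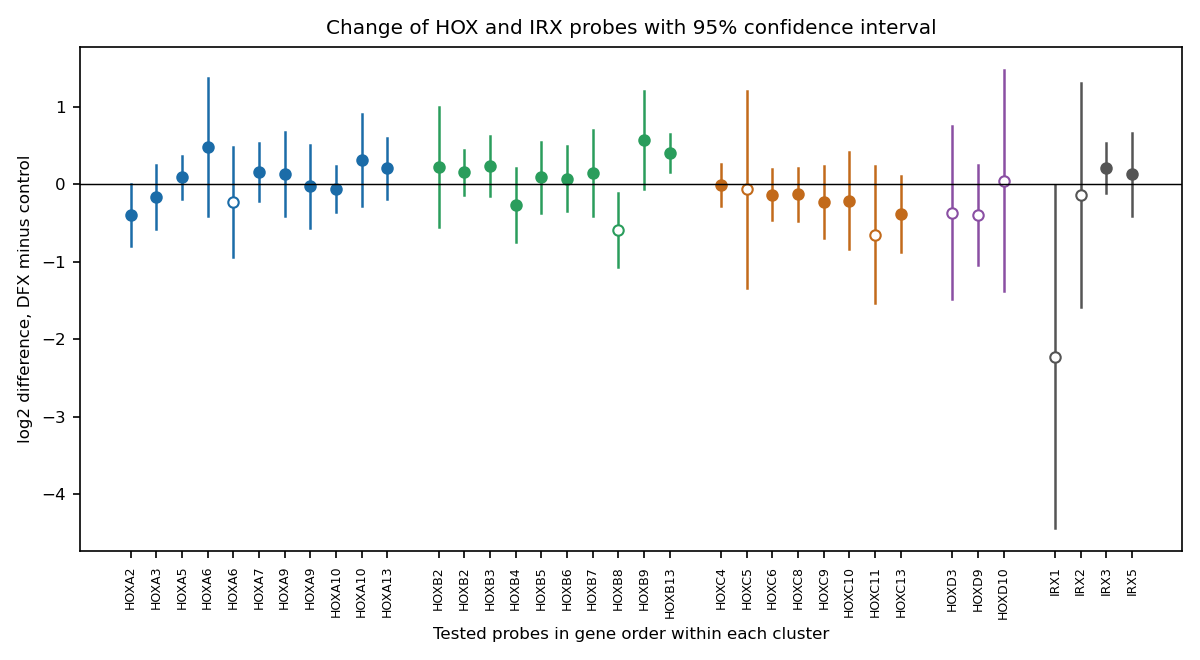
The log2 difference of DFX minus control (y axis) is shown for each of the 36 tested probes (x axis, in gene order within each cluster) with its 95% confidence interval from limma, filled where the probe was well above background on all 6 arrays. Most intervals span 0, and those of HOXB8, HOXB13 and IRX1 do not.

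HOXB13, a factor of the prostate and hindgut epithelium that lies apart from the rest of its cluster, showed log2 intensities of 6.54, 6.64 and 6.45 in control tumors and 6.95, 6.97 and 6.93 under DFX. All 3 DFX tumors were above all 3 control tumors, and the DFX tumors were close together. The difference was 0.40 ± 0.10 (SE, n = 3 and 3), a 1.32-fold higher intensity, and was called, with an adjusted p = 0.514 in limma. It was called in all 20 alternative analyses, with differences between 0.24 and 0.46.

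HOXB9, its nearest measured neighbor, had values of 6.05, 6.93 and 6.48 in control tumors and 7.32, 6.77 and 7.09 under DFX. The groups overlapped, because control replicate 2 was above DFX replicate 2. The difference of 0.57 ± 0.26 was the largest above 0 among the 36 tested probes but was not called (adjusted p = 0.618 in limma).

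HOXB8, on the other side of HOXB9, had values of 3.72, 4.37 and 3.85 in control tumors and 3.25, 3.45 and 3.47 under DFX. The groups did not overlap, but the probe was well above background in control replicate 2 alone. The difference of -0.59 ± 0.19 was called (adjusted p = 0.553 in limma). No fold is given, since most of these values were not well above background. The call was lost without DFX replicate 1, with the raw mean signal (-0.11) and with normexp background correction (-0.15).

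HOXA2, which patterns the hindbrain and the second pharyngeal arch, was well above background on all arrays, with 7.05, 7.05 and 7.36 in control tumors and 6.81, 6.50 and 6.96 under DFX. Every DFX tumor was below every control tumor. The difference of -0.40 ± 0.16 lay just outside the unadjusted threshold (adjusted p = 0.598 in limma) and was called in 8 of 20 alternative analyses, between -0.50 and -0.25.

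IRX1, which takes part in lung and limb patterning, showed the largest difference of the 36 tested probes. Its log2 intensity was 4.62, 4.76 and 7.87 in control tumors and 2.90, 3.98 and 3.70 under DFX. All control tumors were well above background and no DFX tumor was, and control replicate 3 stood far above the other controls. The fitted difference of -2.22 ± 0.91 was called by a narrow margin (adjusted p = 0.594 in limma). Its confidence interval ran from -4.44 to -0.007. The IRX1 signal was significantly above background on all 6 arrays. In each DFX tumor it lay below the dimmest probe called well above background on that array. The control mean was 2.68-fold above the mean of these dimmest values (4.33). This is not a strict bound, since other probes without the flag lay above them. HOXD9 read 4.42 in DFX replicate 1, where the dimmest value was 4.18, and HOXC5 read 4.35 in DFX replicate 3 (4.12). Without control replicate 3 this fold was 1.28 and the fitted difference -1.16. The call was lost in 8 of 19 alternative analyses, among them without any 1 of the 3 DFX tumors.

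IRX2, the neighbor of IRX1 on chromosome 5, has 2 probes, and they disagreed. The probe at the lower coordinate, which did not pass the filter, had 4.35, 3.86 and 6.996 in control tumors and 4.42, 4.17 and 2.04 under DFX. The other probe had 4.33, 3.97 and 5.40 against 3.83, 3.88 and 5.59, a difference of -0.13 ± 0.59 (adjusted p = 0.961 in limma). Control replicate 3 was the highest control on both probes, as for IRX1, but DFX replicate 3 was the lowest tumor on one probe and the highest on the other. Each probe was well above background in 2 control tumors and 1 DFX tumor.

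IRX3 and IRX5, neighbors on chromosome 16 known from heart conduction and from the FTO obesity locus, were measured well in every tumor. IRX3 had 9.27, 9.42 and 9.44 in control tumors and 9.69, 9.38 and 9.70 under DFX (0.21 ± 0.13, adjusted p = 0.688 in limma). IRX5, whose probe is printed above, had 8.82, 8.27 and 8.01 against 8.39, 8.57 and 8.53 (0.13 ± 0.22, adjusted p = 0.881 in limma). The groups overlapped for both genes. IRX4, a factor of the heart ventricle, and IRX6 were well above background in none of the tumors.

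**Figure D3:**
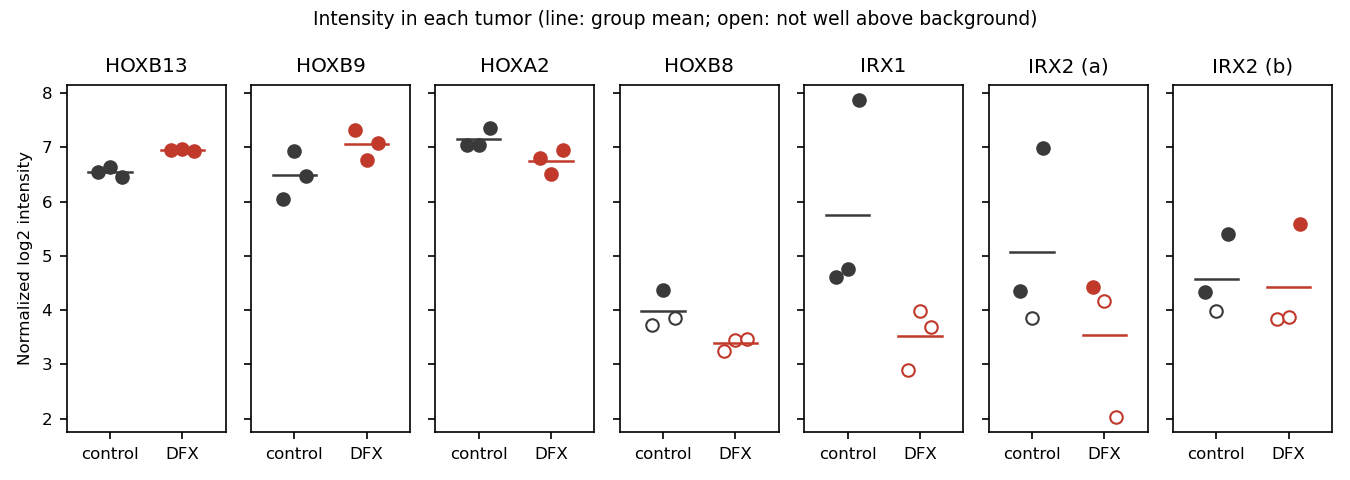
Normalized log2 intensity (y axis) of 6 genes is shown for each control tumor (grey) and DFX tumor (red), with the group mean as a line and open circles where the spot was not well above background. The DFX tumors lie above the control tumors for HOXB13, and below them for HOXA2, HOXB8 and IRX1, where control replicate 3 stands at 7.87.

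HOXA genes showed no common direction. Of 11 tested probes 5 were lower and 6 higher, none was called, and the median difference was 0.088 (range -0.40 to 0.48). It was -0.01 without DFX replicate 1 and 0.02 without control replicate 3. HOXA3, a factor of the thymus and parathyroid, had -0.17 ± 0.17, and HOXA5, a factor of lung development, had 0.09 ± 0.11. HOXA7 had 0.16 ± 0.15 and HOXA13, a factor of the limb and the urogenital tract, had 0.21 ± 0.16.

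Genes of the HOXA cluster with separate probes differed in sign. HOXA10, a factor of the uterus and of blood cells, had 9.70, 9.62 and 9.64 in control tumors and 9.73, 9.65 and 9.40 under DFX on one probe (-0.06). The other HOXA10 probe, which spans chr7:27211789-27213023 and so more than the 60 bases of the probe, had 11.68, 11.64 and 11.48 against 12.29, 12.05 and 11.39 (0.31). DFX replicate 3 was the lowest tumor on both. For HOXA9, known for its part in leukemia, the differences were 0.13 and -0.03, and for HOXA6 they were 0.48 and -0.23. None of these 6 probes was called.

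HOXB genes were higher on 8 of 10 tested probes, with 2 called in opposite directions and a median of 0.149 (range -0.59 to 0.57). Under median scaling of the arrays, 6 of 10 were higher with a median of 0.084, and without control replicate 3, 6 of 10 were higher with a median of 0.081. The 2 probes of HOXB2, a hindbrain factor, had 0.22 and 0.16, HOXB3 had 0.24 ± 0.16 and HOXB5 had 0.09 ± 0.19. HOXB6 had 0.07 ± 0.17 and HOXB7 had 0.14 ± 0.23. HOXB4, known for expanding blood stem cells, had -0.27 ± 0.20. Apart from HOXB8 and HOXB13, no HOXB probe was called.

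HOXC genes were lower on 8 of 8 tested probes under quantile normalization of the processed intensity and under median scaling. They were lower on 7 of 8 under 75th percentile scaling, where HOXC4 turned, and on 7 of 8 with normexp background correction or the raw mean signal. Under quantile normalization of the processed intensity, 7 of 8 lay below the median of all tested probes. None of the 8 was called, and across all settings between 5 and 8 were lower, with 5 without control replicate 1. The median difference was -0.173 (range -0.65 to -0.01), beside -0.025 over all tested probes. It was -0.05 without DFX replicate 2, beside -0.02 over all tested probes, and -0.09 with the raw mean signal. HOXC13, a factor of hair and nail, had 6.96, 6.45 and 7.16 in control tumors and 6.48, 6.38 and 6.55 under DFX. Its difference was -0.38 ± 0.20 (adjusted p = 0.645 in limma), and control replicate 2 lay among the DFX tumors. HOXC4, HOXC6, HOXC8 and HOXC9, all bright, had -0.01 ± 0.11, -0.14 ± 0.13, -0.13 ± 0.14 and -0.23 ± 0.19. HOXC10, whose probe is printed above, had -0.21 ± 0.26, and HOXC11, which was well above background in 1 control tumor, had -0.65 ± 0.36.

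The medians of the HOXC probes by tumor, each taken against the control mean, were 0.08, 0.07 and -0.07 in control tumors and -0.11, -0.42 and -0.03 in the DFX tumors. DFX replicate 2 was the lowest, and DFX replicate 3 lay above control replicate 3, so the groups overlapped. For HOXB the medians were -0.01, 0.09 and -0.11 against 0.21, -0.03 and 0.28, and they also overlapped. Clusters share libraries and neighboring genes are not replicates, so no test is given for them.

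**Figure D4:**
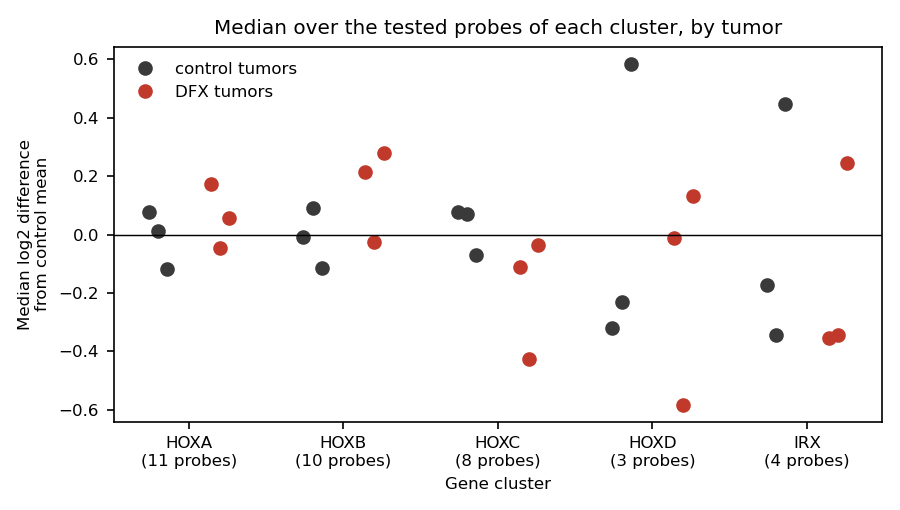
Median log2 difference from the control mean (y axis) over the tested probes of each cluster (x axis), by tumor (3 control tumors in grey, 3 DFX tumors in red). The control and DFX tumors overlap in all 5 clusters, and HOXD, with 3 probes, and IRX, with 4, are the most spread.

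HOXD was tested on 3 probes only. HOXD3 had 5.38, 5.40 and 6.26 in control tumors and 5.67, 4.39 and 5.89 under DFX (-0.37 ± 0.46), on the one HOXD probe well above background in 5 of 6 tumors. HOXD9 had -0.40 ± 0.26 and HOXD10 had 0.05 ± 0.58, each well above background in 1 control tumor. The HOXD9 probe printed above, in the homeobox, was not well above background on any array, and neither was the second HOXD3 probe. The median of -0.37 became 0.10 without DFX replicate 2.

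Precision differed between probes. For the 27 probes detected well above background in every tumor, the median within-group SD was 0.219 (range 0.070 to 0.532), beside 0.179 for all 24367 such probes of the array. Their differences ran from -0.40 to 0.57 with a median of 0.091, with 11 lower, 16 higher and 1 called. The 95% confidence interval lay within ±1 on the log2 scale for 25 of the 27, the exceptions being HOXB9 (up to 1.21) and a HOXA6 probe (up to 1.38). For these 25 probes a doubling or halving was outside the interval. Which smaller changes lay inside it differed by probe. The interval ran from -0.19 to 0.37 for HOXA5 and from -0.84 to 0.42 for HOXC10.

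Other transcripts and regulators of the pathway were read from gene lists. HOTAIR, a noncoding RNA from the HOXC locus, had 9 tested probes, with differences from -0.41 to 0.16. Of these probes 8 were lower under quantile normalization of the processed intensity. Under 75th percentile scaling, normexp background correction or the raw mean signal, 7 probes were lower. One was called, with 5.91, 5.74 and 6.27 in control tumors and 5.64, 5.59 and 5.44 under DFX (-0.41 ± 0.16, adjusted p = 0.582 in limma). The list of noncoding RNAs of the HOX clusters had 12 tested probes, and 9 of them were these HOTAIR probes. The list had 1 called lower, the same HOTAIR probe (8.33%, against 4.95% of all tested probes). It had 0 called higher and a median of -0.210.

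The list of HOX cofactors held the PBX, MEIS and PREP families, which bind DNA beside HOX proteins, and also TGIF1 and TGIF2. In this list, 0 of 15 tested probes were called (median 0.011). Over all tested probes 8.41% were called. Of 6 ParaHox and related probes, 1 was called higher (16.7%). It was CDX2, the intestinal relative of the HOX genes, with 7.78, 7.77 and 6.58 in control tumors and 8.50, 8.65 and 8.48 under DFX (1.17 ± 0.34, adjusted p = 0.522 in limma). The groups did not overlap.

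Polycomb genes, which keep HOX loci silent, had 29 tested probes with 1 of 2 CBX7 probes called lower (-0.25 ± 0.10) and 1 of 2 PHC2 probes higher (0.31 ± 0.12). The other CBX7 probe had -0.09 ± 0.14 and the other PHC2 probe 0.14 ± 0.22. Trithorax genes and H3K27 demethylases, which counter them, had 19 tested probes with 1 of 5 MLL probes called lower (-0.69 ± 0.19) and WDR5 higher (0.34 ± 0.13). The called MLL probe was well above background on 5 arrays, and the other MLL probes had differences of -0.33, -0.08, -0.04 and 0.04, none called. The Polycomb and Trithorax medians were -0.021 and -0.028. In the retinoic acid pathway, 2 of 19 tested probes were called, both higher, with a median of -0.030. They were 1 of 2 probes of STRA6, the receptor for retinol uptake (1.63 ± 0.48), and 1 of 2 probes of RARA, a retinoic acid receptor (0.30 ± 0.12). The other STRA6 probe had 0.40 ± 0.27, and the other RARA probe lay on the other side of 0 with -0.13 ± 0.14. None of these probes passed after adjustment. The share of probes called was 6.90% for Polycomb genes, 10.5% for Trithorax genes and H3K27 demethylases, and 10.5% for the retinoic acid pathway. Over all tested probes it was 8.41%.

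Lists of cell type markers were read beside these values. The probes are for human transcripts, whereas host cells of these tumors are mouse cells. Whether the fibroblast, leukocyte, endothelial and red blood cell signals came from mouse RNA or from the human tumor cells was not tested. Epithelial markers fitted the labelled line, with 17 of 18 probes well above background on all arrays. The log2 of their summed intensity was 19.55 to 19.61 in control and 19.62 to 19.64 in DFX tumors, with 3 of 17 tested probes called higher (EPCAM, 1 of 3 KRT8 probes and 1 of 2 KRT18 probes) and 0 lower, and the uncalled KRT8 probes had 0.24 and -0.12. Red blood cell genes were at 13.49 to 13.82 against 12.15 to 12.22, with 4 of 10 called lower and 0 higher, and AHSP not well above background on any array. Fibroblast markers were at 14.19 to 14.95 against 14.22 to 14.45, with 2 of 17 called lower (PDGFRA and 1 of 2 DCN probes) and 1 higher (LUM), and FBN1, PDGFRB and POSTN well above background on none. Leukocyte markers were at 12.64 to 13.02 against 12.64 to 12.97, with 0 of 15 called and CD163, CSF1R and MRC1 well above background on none. Endothelial markers were at 9.34 to 10.06 against 9.63 to 9.75, with 3 of 8 called higher, all PECAM1, and CLDN5, EMCN and KDR well above background on none. Over all tested probes, 4.95% were called lower and 3.46% higher. The part of these cell types in the HOX and IRX values was not tested.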

How the data were processed

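Each of the 6 tumors had one array, and groups and replicates follow the labels. The authors deposited scanner files with intensity values on a linear scale, background-subtracted by Feature Extraction but not normalized between arrays, and a p-value for each spot against background. The authors also deposited normalized intensity values, used as an alternative. The labels name Feature Extraction 9.5.1.1 and the file headers 10.7.1.1. The members and gene lists were chosen with earlier results of these data known.

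The deposited processed intensity was log2-transformed and quantile-normalized over 58717 non-control spots, 1398 flagged spot values were then left out, and spots were averaged per probe. A probe was well above background where at least 0.5 of its spots were. The test kept 31807 of 50599 probes, those whose median p-value against background was below 0.05 in each of the 6 tumors. It was the moderated linear model of limma (version 3.58.1, R 4.3.3; lmFit, eBayes), and p-values of the tested probes were adjusted together by Benjamini-Hochberg. The sources used here name no test for the arrays. A probe was called at an unadjusted p under 0.05. The fit was tested on simulated data. A named gene had a called probe, or a probe well above background in all 6 tumors, or in every tumor of one group and none of the other, or was an IRX gene. HOXA4, HOXC5, HOXC11, HOXD3, HOXD9, HOXD10, HOXD13 and the cell type markers without a called probe, outside that rule, were named after their values were seen. All 45 member names matched RefSeq symbols.

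All arrays were on 1 slide scanned on 1 day, with control tumors in row 1 and DFX tumors in row 2, so the slide row and the treatment cannot be told apart. Replicates are separate tumors. Precision is limited by the number of arrays.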

Additional observations from a re-analysis of the deposited data

How the results depend on the processing

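The number of HOX and IRX probes called was 3, and 1 with normexp background correction. Leaving out 1 tumor at a time gave 1 to 6 called probes, with 1 without DFX replicate 1, 6 without control replicate 2, and 5 without control replicate 3 or without DFX replicate 3. HOXB13 was called in each of these analyses. The HOXD median of -0.37 ranged from -0.53 to 0.10 when 1 tumor was left out, with 0.10 without DFX replicate 2, and it had no value over probes well above background on all arrays. The HOXA, HOXB, HOXC and IRX medians moved by less than the spread between tumors, and the HOXB median stayed above 0 and the HOXC median below 0 under every alternative. The IRX median was near 0 to begin with (-0.002 over 4 probes) and changed sign under 9 of 21 alternatives, and the HOXA median under 1. Replicate numbers did not pair the tumors (correlations of deviations 0.027, 0.027 and 0.016), and with the replicate number as a block 4 probes were called, the 3 and HOXA2. With the slide column as a random block 2 were called. With the Kruskal-Wallis H test 4 were called, the same 4 whose groups did not overlap. With 3 tumors in each group, only probes without overlap can be called by that test. Without the filter on dim probes HOXA4, well above background on no array, was called lower (-0.89). Under median scaling, the array-wide median difference was -0.10 in place of -0.025.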
